A study of Homo sapiens with 2 samples.

Results

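Proteasome genes were taken as the protein-coding genes outside chromosome 13 whose symbol starts with PSMA, PSMB, PSMC, PSMD, PSME, PSMF or PSMG and a digit, and 48 of the 31845 listed genes met that rule. Of these, 47 held at least 50 counts in the higher of the 2 libraries, as did 12143 of the 16349 listed protein-coding genes. The one below was PSMB11, the thymus-specific catalytic subunit, with 0 counts in resistant cells and 1 in parental cells. PSMA8 and PSMB3 were not analysed here. One library came from a Capan-1 derivative made resistant by stepwise exposure to olaparib between 15 nM and 128 uM, and 1 from parental Capan-1 cells with no such exposure in the labels. Capan-1 is a cell line from a pancreatic adenocarcinoma, known for a mutant BRCA2 gene, whose sequence was not analysed here in either library, and olaparib inhibits PARP enzymes. The labels' cell type field gives breast cancer instead. They do not say whether the resistant derivative is a clone or a pool, or whether olaparib was present at harvest. The resistant columns were assigned by elimination, because only the parental heading is spelled out in the labels, and every direction below rests on that.

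The proteasome degrades proteins that carry ubiquitin chains. Its barrel-shaped 20S core stacks rings of alpha subunits, which gate entry, on rings of beta subunits, some of which cut peptide bonds. The 19S regulatory cap binds ubiquitin chains, removes them and unfolds the substrate with a ring of ATPases. In the immunoproteasome, which interferon induces, PSMB8, PSMB9 and PSMB10 take the places of the standard catalytic subunits PSMB5, PSMB6 and PSMB7, and its peptides feed MHC class I presentation. Dedicated chaperones that are absent from the finished particle assemble core and cap.

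Promoter windows are shown for the 3 immunoproteasome genes, and for the 3 genes with the highest ratios among those whose window held the core of the antioxidant response element, TGACNNNGC, which NFE2L1 and NFE2L2 bind with small MAF proteins. They come from RefSeq on GRCh38.p14 and span 250 bases before to 50 bases after the gene start, written 5′ to 3′ on the gene's strand. Capitals mark TGACNNNGC on either strand in PSMB9, PSMD9, PSMG1 and PSMD5. In PSMB8 and PSMB10 they mark a core of the interferon-stimulated response element on either strand, GAAA on both sides of any 2 bases.
PSMB8 promoter, chr6:32843998-32844297, minus strand: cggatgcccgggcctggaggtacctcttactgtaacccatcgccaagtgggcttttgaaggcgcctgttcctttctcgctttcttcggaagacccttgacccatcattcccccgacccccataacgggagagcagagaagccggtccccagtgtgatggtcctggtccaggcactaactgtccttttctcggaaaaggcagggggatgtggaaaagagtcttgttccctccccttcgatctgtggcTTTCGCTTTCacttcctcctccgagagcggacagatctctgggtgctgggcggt
PSMB9 promoter, chr6:32853942-32854241, plus strand: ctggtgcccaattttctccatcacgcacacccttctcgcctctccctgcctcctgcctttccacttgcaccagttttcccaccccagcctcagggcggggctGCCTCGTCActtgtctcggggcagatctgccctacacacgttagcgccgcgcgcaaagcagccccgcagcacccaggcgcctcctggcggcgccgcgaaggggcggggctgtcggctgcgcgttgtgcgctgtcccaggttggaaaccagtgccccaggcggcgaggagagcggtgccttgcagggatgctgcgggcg
PSMB10 promoter, chr16:67936801-67937100, minus strand: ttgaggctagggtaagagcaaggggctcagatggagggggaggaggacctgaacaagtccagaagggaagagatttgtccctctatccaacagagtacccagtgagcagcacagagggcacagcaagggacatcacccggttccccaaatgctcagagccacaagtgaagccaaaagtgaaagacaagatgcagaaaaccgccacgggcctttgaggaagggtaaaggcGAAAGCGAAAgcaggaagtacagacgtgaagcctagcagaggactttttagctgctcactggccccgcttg
PSMD9 promoter, chr12:121888540-121888839, plus strand: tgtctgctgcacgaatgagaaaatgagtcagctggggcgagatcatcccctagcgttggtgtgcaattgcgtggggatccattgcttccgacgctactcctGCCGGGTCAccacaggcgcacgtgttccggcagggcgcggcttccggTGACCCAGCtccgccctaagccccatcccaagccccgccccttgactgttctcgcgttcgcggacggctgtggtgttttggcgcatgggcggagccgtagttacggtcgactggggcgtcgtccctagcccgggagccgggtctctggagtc
PSMG1 promoter, chr21:39183402-39183701, minus strand: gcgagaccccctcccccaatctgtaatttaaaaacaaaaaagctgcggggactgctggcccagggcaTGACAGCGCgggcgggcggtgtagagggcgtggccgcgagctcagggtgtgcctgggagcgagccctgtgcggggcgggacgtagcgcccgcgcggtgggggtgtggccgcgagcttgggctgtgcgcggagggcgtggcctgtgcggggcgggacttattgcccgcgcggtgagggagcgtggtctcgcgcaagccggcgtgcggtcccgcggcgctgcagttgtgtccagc
PSMD5 promoter, chr9:120842873-120843172, minus strand: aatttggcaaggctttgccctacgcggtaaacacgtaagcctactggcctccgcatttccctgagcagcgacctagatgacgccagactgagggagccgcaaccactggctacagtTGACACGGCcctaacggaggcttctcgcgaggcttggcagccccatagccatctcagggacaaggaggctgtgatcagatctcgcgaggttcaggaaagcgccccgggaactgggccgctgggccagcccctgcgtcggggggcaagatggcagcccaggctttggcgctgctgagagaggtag

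The PSMB8 and PSMB10 matches began at -4 and -21 relative to the gene start. The PSMB9 match began at -148, and PSMD9 held 2 matches, at -149 and -102. Those of PSMG1 and PSMD5 began at -183 and -134. RefSeq windows were found for 42 of the 48 proteasome genes, 53 windows in all because a gene can have several starts.

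The listed counts summed to 34507480 over 27940 genes above 0 in the resistant library, and to 34572931 over 28834 in the parental library. With no replicate, no test between libraries was possible, and each ratio describes these 2 libraries, with a 95% interval for counting error only. BRCA2 held 7585 counts in resistant cells, against 1381 in parental cells, a 5.53-fold ratio (5.22 to 5.86). The BRCA2 row has the length of a 2011-base transcript that is not annotated as protein-coding. All 9 epithelial and ductal markers reached 50 counts. Summed, they held 195059 counts in resistant cells and 141993 in parental cells, with 6 higher in resistant cells and 3 lower (SOX9, CFTR and MUC1). Of 4 mammary luminal markers, ESR1 and PGR had at most 18 counts in either library, GATA3 held 486 counts in resistant cells and 1884 in parental cells, and KRT18, also on the epithelial list, held 34914 in resistant cells and 24652 in parental cells. Of 7 leukocyte markers, 6 had at most 23 counts in either library, with CD14 at 0 in resistant cells and LAPTM5 at 0 in parental cells. Their sum of 614 counts in resistant cells and 398 in parental cells was mostly CD68, with 582 counts in resistant cells and 351 in parental cells.

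For most genes, a row of the table carries the length of a single transcript. The count divided by the FPKM value (fragments per kilobase, scaled to library size) implies a length, and for 8299 of 9450 protein-coding genes checked (87.8%) it matched 1 of that gene's GENCODE 29 transcripts within 0.2%. A length 3% longer matched in 2.14%, and 21.7% were at their longest transcript. Among the proteasome genes 45 of 47 matched, 17 at a protein-coding transcript and 28 at another type, such as a retained-intron transcript or a target of nonsense-mediated decay. PSMA5 and PSMC2 matched none. Only 4 were at their longest coding transcript, and the median implied length was 704 bases. How a row was chosen is not given in the sources used here. Protein-coding genes with 1 annotated transcript lay within 1 counting SD of equality between the libraries in 10.7% of 814 cases. That share was 4.7% of 2574 genes with 2 to 4 transcripts, 1.83% of 3502 with 5 to 8 and 0.628% of 5253 with 9 or more. Rows of genes with many transcripts thus seldom lay within 1 counting SD of equality. That distance is a smaller fold at higher counts, and the classes were not matched for count. The proteasome genes have a median of 9 annotated transcripts (range 2 to 21). The part of this row choice in the ratios below was not tested, except where rows of the 2 kinds are set apart.

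Proteasome genes were mostly and modestly higher in resistant cells. The log2 ratio was above 0 for 43 of 47, against 51.3% of all protein-coding genes at the count minimum, and below 0 for PSMD6, PSMB10, PSMA4 and PSMG2. Their median was 0.46 on the log2 scale, a 1.37-fold ratio, beside 0.09 for all protein-coding genes. In all, 12 were at least 1.5-fold higher (16.5% of protein-coding genes were), and none was at least 1.5-fold lower (21.2% were). None was 2-fold higher or 2-fold lower, where 5.47% and 8.75% of protein-coding genes were. The counting interval lay above 1 for 42 genes (46.1% of protein-coding genes) and below 1 for 4 (43%). PSMC4 alone spanned 1. The log2 ratios ranged from -0.37 for PSMD6 to 0.88 for PSMD9, with an SD of 0.29 among the proteasome genes and 0.89 among protein-coding genes. Together the 48 genes held 283915 counts in resistant cells, 0.823% of the counts listed for that library (exact binomial interval 0.8198 to 0.8258). In parental cells they held 222142, which was 0.643% of the listed counts (0.6399 to 0.6452). The FPKM values imply larger library totals than the listed counts, so these are shares of the listed rows only. Fewer cells expressing a gene and less of its RNA per cell cannot be told apart in these bulk libraries.

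**Figure D1:**
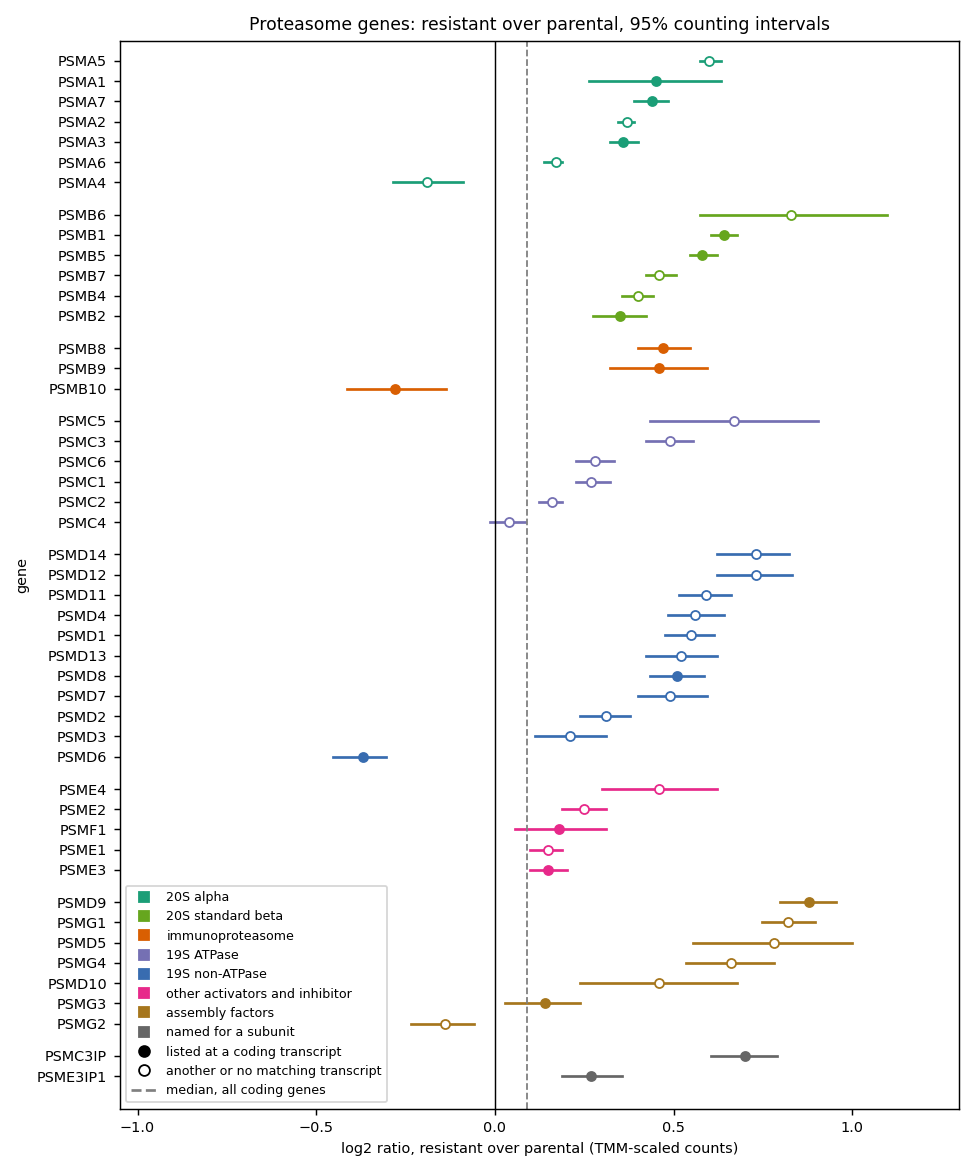
Log2 ratio of resistant over parental TMM-scaled counts (x axis) for each of the 47 proteasome genes (y axis), grouped by role. Bars are 95% counting intervals, filled circles mark rows at a protein-coding transcript, open circles rows at another or no matching transcript, and the dashed line is the median of all protein-coding genes at 0.09. Of the 47 points, 43 lie right of 0.

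**Figure D2:**
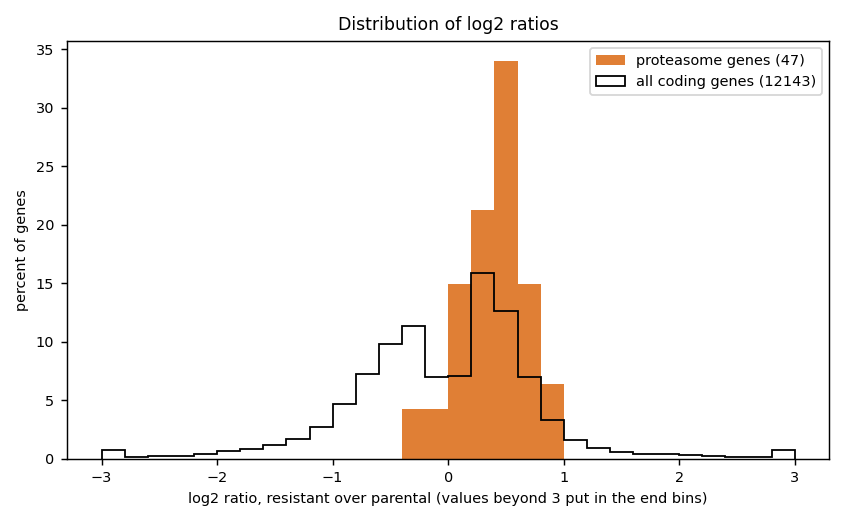
Percent of genes (y axis) by log2 ratio of resistant over parental counts (x axis) for the 47 proteasome genes (filled) and all 12143 protein-coding genes at the count minimum (outline); values beyond 3 are in the end bins. The outline has 2 humps with a dip near 0, and the proteasome genes lie between -0.37 and 0.88, mostly under the upper hump.

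The excess over protein-coding genes was 0.37 (log2, difference of medians) and was present in both kinds of row. Proteasome genes listed at a protein-coding transcript had a median of 0.44 (17 genes), beside -0.02 for 5832 protein-coding genes listed that way. Those listed at a transcript of another type had 0.46 (28 genes), beside 0.16 for 4604. With 9 or more annotated transcripts the medians were 0.40 for 24 proteasome genes and -0.02 for 5229 protein-coding genes. Row length did move with the ratio among protein-coding genes. Their median was 0.20 for implied lengths under 600 bases, 0.21 from 600 to 1200, 0.14 from 1200 to 2400 and -0.25 from 2400 bases. The proteasome genes in those classes had 0.46, 0.46, 0.26 and 0.35, with 17, 21, 6 and 3 genes. Against protein-coding genes under 1200 bases alone, the excess was 0.25. Mitochondrial ribosomal protein genes lay as high, with a median of 0.43 over 74 genes, and cytoplasmic ribosomal protein genes had 0.18 over 81.

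Alpha subunits of the 20S core had a median log2 ratio of 0.37, and 6 of 7 were above 0. PSMA5, which had no matching transcript, held 28767 counts in resistant cells, against 19078 in parental cells (1.52-fold, 1.49 to 1.55), the highest of the ring. PSMA7 held 9189 counts in resistant cells and 6827 in parental cells (1.35-fold, 1.31 to 1.40), and PSMA3 held 12457 in resistant cells and 9743 in parental cells (1.29-fold, 1.25 to 1.32), both at coding transcripts. PSMA4 was the one alpha subunit that was lower, with 1728 counts in resistant cells and 1980 in parental cells (0.88-fold, 0.82 to 0.94), and its row is a retained-intron transcript. Exons of PSMA1, PSMA2 and PSMA6 overlap those of another protein-coding gene on the same strand. PSMA2 held 28931 counts in resistant cells, against 22594 in parental cells, and its overlapping partner 28852 in resistant cells and 22699 in parental cells, so the pair could not be told apart. PSMA6 held 24414 in resistant cells and 21912 in parental cells (1.12-fold, 1.10 to 1.14). Its partner held 54878 in resistant cells and 51986 in parental cells, and summed they gave 1.08-fold (1.07 to 1.09). PSMA1 held 582 in resistant cells and 430 in parental cells (1.36-fold, 1.2 to 1.55). Its partner held 9249 in resistant cells and 8022 in parental cells, and summed they gave 1.17-fold (1.14 to 1.21). How shared reads were assigned is not given in the sources used here.

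All 6 standard beta subunits were higher in resistant cells, with a median log2 ratio of 0.52 and a range of 0.35 (PSMB2) to 0.83 (PSMB6). PSMB5, which carries the chymotrypsin-like activity, held 14236 counts in resistant cells, against 9580 in parental cells (1.5-fold, 1.46 to 1.54). PSMB7, the trypsin-like subunit, held 11125 in resistant cells and 8115 in parental cells (1.38-fold, 1.34 to 1.42). PSMB6, the caspase-like subunit, held only 337 counts in resistant cells and 190 in parental cells (1.79-fold, 1.49 to 2.14). Its implied length of 583 bases is that of a nonsense-mediated decay and of a retained-intron transcript. The noncatalytic PSMB1, listed at its coding transcript, held 14104 counts in resistant cells, against 9104 in parental cells (1.56-fold, 1.52 to 1.60). PSMB4 held 8785 counts in resistant cells and 6707 in parental cells (1.32-fold, 1.28 to 1.36), and PSMB2 3436 in resistant cells and 2713 in parental cells (1.27-fold, 1.21 to 1.34). Over the 13 alpha and standard beta genes the median log2 ratio was 0.44, with 3 at least 1.5-fold higher.

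Immunoproteasome genes did not move together. PSMB8 held 3514 counts in resistant cells, against 2552 in parental cells (1.39-fold, 1.32 to 1.46). PSMB9, its neighbour in the MHC region of chromosome 6, held 1064 counts in resistant cells and 780 in parental cells (1.37-fold, 1.25 to 1.51). PSMB10, on chromosome 16, held 720 counts in resistant cells and 880 in parental cells (0.82-fold, 0.75 to 0.91). All 3 rows are at coding transcripts. Exons of PSMB10 overlap another protein-coding gene on the same strand, whose 301 counts in resistant cells and 343 in parental cells gave 0.88-fold (0.75 to 1.03).

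Each immunoproteasome subunit was lower relative to the standard subunit it replaces, by differing amounts. The quotient of PSMB8 over PSMB5 FPKM was 0.312 in resistant cells and 0.336 in parental cells, a ratio of ratios of 0.927 (0.875 to 0.982). For PSMB10 over PSMB7 the quotients were 0.0514 in resistant cells and 0.0861 in parental cells, a ratio of ratios of 0.597 (0.538 to 0.662). For PSMB9 over PSMB6 they were 2.35 in resistant cells and 3.06 in parental cells, a ratio of ratios of 0.769 (0.626 to 0.944). The PSMB6 row was low in both libraries. Only the first pair has both rows at coding transcripts. In summed FPKM of the listed rows the immunoproteasome subunits made up 18.9% of the catalytic subunits in resistant cells and 20.7% in parental cells. The PSMB6 and PSMB7 rows are not at coding transcripts, so these shares do not give the composition of the catalytic subunits.

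Within the cap, the 6 ATPases that unfold substrates were above 0 with a median log2 ratio of 0.28. PSMC5 was the highest, with 398 counts in resistant cells and 252 in parental cells (1.59-fold, 1.35 to 1.87). PSMC3 held 3897 counts in resistant cells and 2794 in parental cells (1.40-fold, 1.34 to 1.47). PSMC4 was level, with 8950 counts in resistant cells, against 8792 in parental cells (1.02-fold, 0.99 to 1.06). PSMC6, PSMC1 and PSMC2 lay between, at 0.28, 0.27 and 0.16 on the log2 scale. PSMC2 held the most counts of the ring, 18932 in resistant cells and 17082 in parental cells. None of the ATPase rows matched a coding transcript. PSMC1 also shares 75.8% of its exonic bases with NRDE2 on the opposite strand, which held 1229 counts in resistant cells and 1379 in parental cells, and whether counting used strand is not given in the sources used here.

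Among the 11 non-ATPase subunits of the cap, 10 were higher in resistant cells, with a median log2 ratio of 0.52. PSMD14, the deubiquitinase that releases ubiquitin chains, held 2210 counts in resistant cells, against 1345 in parental cells (1.65-fold, 1.54 to 1.77). PSMD12, a lid subunit, held 1988 counts in resistant cells and 1208 in parental cells (1.66-fold, 1.54 to 1.78), and PSMD11, another lid subunit, 4186 in resistant cells and 2803 in parental cells (1.5-fold, 1.43 to 1.58). The ubiquitin receptor PSMD4 held 3466 counts in resistant cells and 2361 in parental cells (1.48-fold, 1.40 to 1.56). The large base scaffolds PSMD1 and PSMD2 had 1.46-fold and 1.24-fold ratios. Of the other lid subunits, PSMD8, PSMD13, PSMD7 and PSMD3 lay between 1.16-fold and 1.44-fold. PSMD6, also of the lid, had the lowest ratio of all proteasome genes, with 2918 counts in resistant cells and 3809 in parental cells (0.77-fold, 0.73 to 0.81). PSMD6 and PSMD8 were the non-ATPase genes listed at coding transcripts, and they went in opposite directions.

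Core and cap differed little. The cap's median log2 ratio was 0.49 over 17 genes, with 4 at least 1.5-fold higher, 0.05 above the core's, and by means the cap was 0.02 below (-0.02). Restricted to rows at coding transcripts the cap lay below the core (difference -0.37), but this compares 2 cap genes with 6 core genes. With rows of other types the medians were 0.51 for 14 cap genes and 0.38 for 6 core genes. The ratios therefore give no settled order of core and cap.

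The remaining activators and the inhibitor had the lowest median log2 ratio of the role groups, 0.18, and no gene at 1.5-fold. PSME1 and PSME2 form the interferon-inducible activator ring that pairs with the immunoproteasome. PSME1 held 7810 counts in resistant cells, against 7099 in parental cells (1.11-fold, 1.07 to 1.14), and PSME2 5293 in resistant cells and 4480 in parental cells (1.19-fold, 1.14 to 1.24). PSME3, the nuclear activator of the same family, held 6972 counts in resistant cells and 6319 in parental cells (1.11-fold, 1.07 to 1.15). PSME4, a single-chain nuclear activator, was the highest at 731 counts in resistant cells and 535 in parental cells (1.38-fold, 1.23 to 1.54). PSMF1, named as an inhibitor of the core, held 1148 counts in resistant cells and 1017 in parental cells (1.14-fold, 1.04 to 1.24).

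Assembly factors included the highest ratio of any proteasome gene and one of the 4 lower ones, with 0.66 as the median log2 ratio of 7 genes and 4 at least 1.5-fold higher. PSMD9, a chaperone of the cap base, held 3818 counts in resistant cells, against 2095 in parental cells (1.83-fold, 1.74 to 1.94), at its longest coding transcript. Its same-strand neighbours with overlapping exons were also higher, and summed with the larger of them the ratio was 1.86-fold (1.78 to 1.94). PSMD5, which binds an ATPase subunit while the cap base is assembled, held 465 counts in resistant cells and 273 in parental cells (1.71-fold, 1.47 to 2.0). PSMD10, also known as gankyrin, held 407 counts in resistant cells and 298 in parental cells (1.37-fold, 1.18 to 1.60).

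PSMG1 and PSMG2 act as a heterodimer that builds the alpha ring, and their rows went opposite ways. PSMG1 held 4055 counts in resistant cells, against 2305 in parental cells (1.77-fold, 1.68 to 1.86), at a nonsense-mediated decay transcript. PSMG2 held 2013 counts in resistant cells and 2239 in parental cells (0.91-fold, 0.85 to 0.96), at a retained-intron transcript. The second heterodimer was also uneven. PSMG4 held 1389 counts in resistant cells and 883 in parental cells (1.58-fold, 1.45 to 1.72), and PSMG3 1555 in resistant cells and 1425 in parental cells (1.10-fold, 1.02 to 1.18). The assembly factors' median exceeded the core's by 0.22 on the log2 scale, but by 0.09 with means, by 0.11 without genes with overlapping exons, and by 0.06 with rows at coding transcripts, where 2 assembly factors remain.

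The rule also takes in 2 genes that only carry the name of a proteasome gene. PSMC3IP, a factor of meiotic recombination, held 2470 counts in resistant cells, against 1531 in parental cells (1.62-fold, 1.52 to 1.73). PSME3IP1, which binds the activator PSME3, held 2861 counts in resistant cells and 2385 in parental cells (1.21-fold, 1.14 to 1.28). Without them and PSMF1, the excess over protein-coding genes was again 0.37.

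Listed levels differed far more between genes than between libraries. Among core genes the highest FPKM was 403.2 in resistant cells and 302.4 in parental cells, both for PSMA3. The lowest was 6.79 in resistant cells and 3.67 in parental cells, both for PSMB6. The core's highest level was 59.4 times its lowest in resistant cells and 82.4 times in parental cells, although these proteins occur in equal numbers in the particle. The rows describe different kinds of transcript, 363 bases and coding for PSMA3 and 583 bases and not coding for PSMB6, so they do not order the genes' total output. Between the 2 libraries, log2 FPKM across the 47 genes correlated at r = 0.98 (Spearman's rho 0.98), as a description across genes that are not independent replicates.

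**Figure D3:**
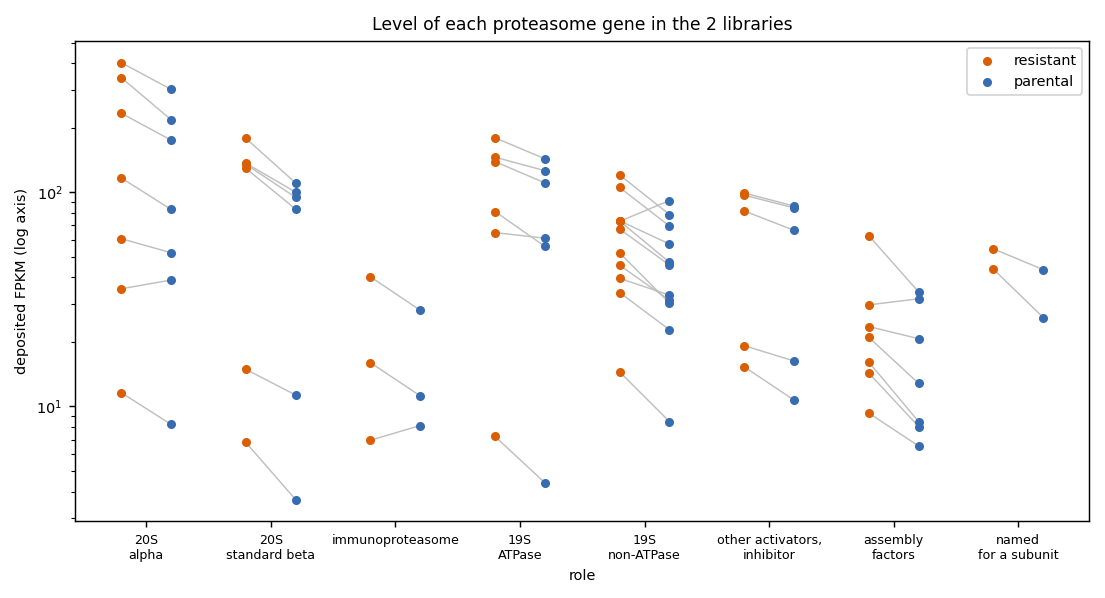
Deposited FPKM of each proteasome gene (log axis) by role (x axis), with the resistant library left of the parental library and a line joining each gene's 2 values. Core genes range from 6.79 to 403.2 FPKM in resistant cells and from 3.67 to 302.4 in parental cells, and 4 lines run upward to the parental side.

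The proteasome genes lie on 17 chromosomes, and the genes around them moved in both directions. For each, the median log2 ratio of up to 10 protein-coding genes on either side was above 0 for 31 and below 0 for 16, and 14 of those 16 proteasome genes were themselves above 0. In all, 41 genes exceeded their neighbours' median and 6 were below it, and the median difference over the 47 genes was 0.33. The same shares over all protein-coding genes were not computed. PSMD13 stood at 0.52 with its neighbours at -0.45, PSMD7 at 0.49 with -0.43, and PSMD10 at 0.46 with -0.51. Ratios nevertheless moved with their surroundings, at r = 0.47 (Spearman's rho 0.47, 47 genes, across genes that share the same 2 libraries and in part their neighbours). The low PSMD6 and PSMA4 lie among genes with medians of -0.77 and -0.52, and the high PSMD9 among genes at 0.75. PSMB8 and PSMB9 had neighbours at 0.43, near their own 0.47 and 0.46. PSMB10 and PSMG2 were lower although their neighbours stood at 0.23 and 0.22. The part of the surroundings in these ratios was not tested.

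**Figure D4:**
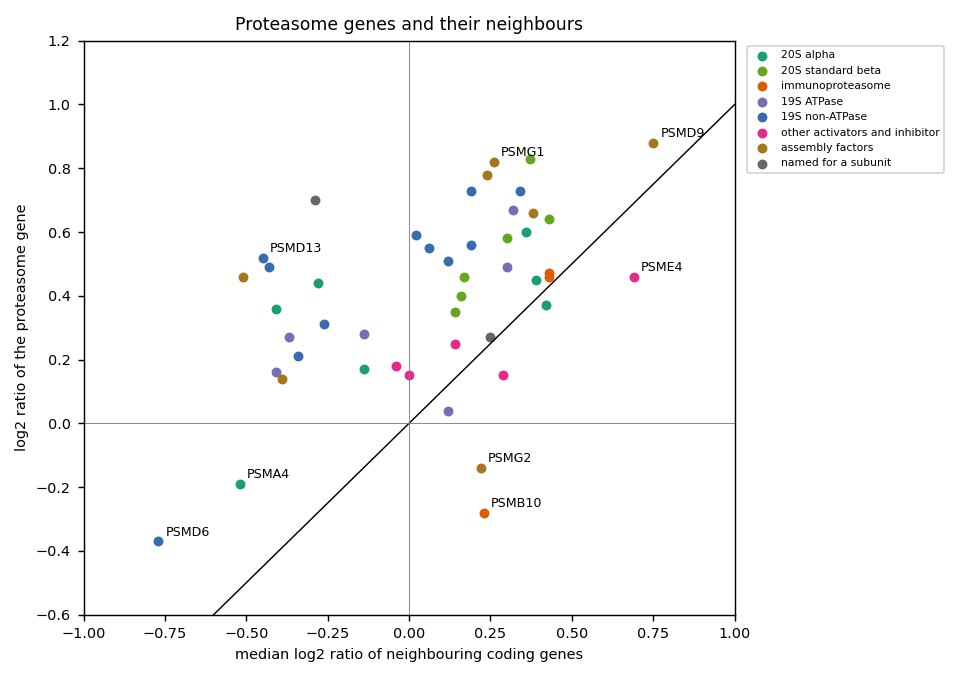
Log2 ratio of each proteasome gene (y axis) against the median log2 ratio of up to 20 neighbouring protein-coding genes (x axis), coloured by role; the diagonal marks equality. Of 47 points, 41 lie above the diagonal, and PSMB10 and PSMG2 lie below 0 with neighbours above 0.

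All 10 motifs searched, on both strands, were at least as frequent in the proteasome windows as in all windows. TGACNNNGC on either strand occurred in 26.4% of proteasome windows and in 13.3% of all 35116 windows of that length. The 14 genes with it had a median log2 ratio of 0.46, and the others 0.40. Beside PSMD9, PSMG1 and PSMD5, shown above for their high ratios, the 14 included PSMA4 and PSMG2, which were lower, and PSMC4, which was level. The interferon-response core shown above occurred in 13.2% of proteasome windows and 3.57% of all windows, and its 7 genes had a median of 0.25, against 0.46 without. They included PSMB8, PSMB10, PSME1 and PSME2. The ETS-type letters CCGGAAGT occurred in 18.9% of proteasome windows and 4.14% of all windows, with a median of 0.37 for 10 genes and 0.45 without. TGA and GCA separated by 4 bases, which shares matches with TGACNNNGC, occurred in 32.1% of proteasome windows and 12.5% of all windows, and TGACTCA in 5.66% of proteasome windows and 4.95% of all windows. The medians with and without were 0.47 and 0.36 for the former, and 0.67 and 0.42 for TGACTCA, found in 3 genes. CCAAT occurred in 43.4% of proteasome windows and 34.6% of all windows, and GCGC and TGCGC separated by 1 base in 13.2% of proteasome windows and 5.78% of all windows. The medians with and without were 0.46 and 0.40 for CCAAT, and 0.17 and 0.46 for the latter, found in 5 genes. GGCGGGAAA occurred in 3.77% of proteasome windows and 0.777% of all windows, CACGTG in 7.55% of proteasome windows and 7.26% of all windows, and GGGCGG in 69.8% of proteasome windows and 45% of all windows. Their medians with and without were 0.57 and 0.40 (2 genes with), 0.27 and 0.45 (3 genes), and 0.46 and 0.36 (29 genes). A match describes the letters of a window and not binding.

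Of the genes that control proteasome transcription, most were lower in resistant cells. The list held 12 genes, 3 above 0 and 9 below, beside 51.3% above 0 among protein-coding genes, and its median log2 ratio was -0.35. The 3 above 0 were FBXW7, VCP and NGLY1, at 0.55, 0.31 and 0.17. In it 4 genes were at least 1.5-fold lower, as were 21.2% of protein-coding genes. NFE2L1, the factor that drives proteasome genes when proteasome activity falls, held 1031 counts in resistant cells, against 1254 in parental cells (0.83-fold). Its relative NFE2L2 held 385 counts in resistant cells and 738 in parental cells (0.53-fold), at a retained-intron transcript. DDI2, the protease that activates NFE2L1, held 56 counts in resistant cells and 99 in parental cells (0.57-fold). The ubiquitin ligases SYVN1 and BTRC, which act on NFE2L1, had log2 ratios of -0.81 and -0.67. The list mixes factors, an activating protease and ligases, so its median gives no single direction of proteasome control.

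Partners of the proteasome without a PSM symbol were above 0 for all 11 genes, with a median log2 ratio of 0.36 and 2 at least 2-fold higher. Among all protein-coding genes 51.3% were above 0 and 5.47% at least 2-fold higher. POMP, the maturation factor of the core, lies on chromosome 13 and stood apart, with 40451 counts in resistant cells and 6759 in parental cells (6.02-fold). PAAF1, an inhibitor of cap and core association, held 79 counts in resistant cells and 37 in parental cells (log2 ratio 1.08). UCHL5, a deubiquitinase of the cap, and its anchor ADRM1 had log2 ratios of 0.58 and 0.26, and the small cap subunit SEM1 had 0.30. POMP carries no PSM symbol and is in none of the assembly counts above.

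Ubiquitin genes and their first enzymes were above 0 for 9 of 11, with a median log2 ratio of 0.31 and none at 1.5-fold. Among all protein-coding genes 51.3% were above 0 and 16.5% at least 1.5-fold higher. The conjugating enzyme UBE2D2 was the highest at 0.57, and the polyubiquitin gene UBB was the lowest at -0.29. Shuttle factors and p97 partners had a median of 0.07 over 13 genes, with 7 above 0 (53.8%, near the share of protein-coding genes). ZFAND5, which stimulates the proteasome, was lowest at -0.80. Antigen-loading and interferon genes were split, with 7 of 12 above 0 (58.3%, also near that share) and a median of 0.28. TAP1, the peptide transporter encoded between PSMB8 and PSMB9, held 1893 counts in resistant cells, against 1297 in parental cells (1.47-fold). NLRC5, the activator of MHC class I genes, held 59 counts in resistant cells and 31 in parental cells (log2 ratio 0.92). The interferon factors STAT2, IRF9 and IRF1 were lower in resistant cells, at -1.02, -0.61 and -0.56. Of the genes named from these lists, NFE2L2, DDI2, BTRC, PAAF1, ADRM1, SEM1, UBE2D2, ZFAND5, NLRC5, IRF9 and IRF1 have rows at noncoding transcript types. Rows of NFE2L1, SYVN1, FBXW7, VCP, POMP, UCHL5, UBB, TAP1 and STAT2 are at coding transcripts, and NGLY1 matched none.

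**Figure D5:**
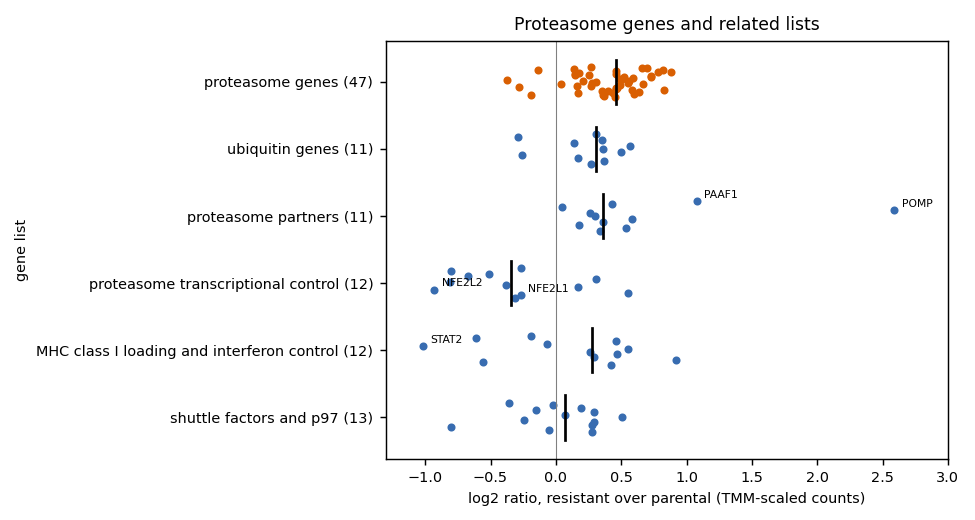
Log2 ratio of resistant over parental counts (x axis) for the proteasome genes and 5 related lists (y axis, number of genes at the count minimum in brackets); points are genes and black bars medians. The medians are 0.46 for proteasome genes, 0.31, 0.36, -0.35, 0.28 and 0.07 for the lists from top to bottom, and POMP stands at 2.59.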

How the data were processed

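The deposited table gives a count and an FPKM value per gene and library. The deposited counts are whole and not normalized; the FPKM values were made by the authors, per the file headers. Per the submitters' processing notes, the tool RSEM 1.2.3 and the build hg19 are listed, with no role. The annotation, the use of strand, rounding and the choice of 1 row per gene were not given in the sources used here. GENCODE release 29 (GRCh38) named 29719 of 31845 identifiers and served for gene types, order, exon overlap and transcript lengths, never coordinates. Counts were scaled with TMM factors (0.998 resistant, 1.002 parental; edgeR 4.0.16, R 4.3.3), with a prior of 1 count and a minimum of 50 counts in the higher library. Fold intervals (95%) are exact and conditional on the summed count, by Clopper-Pearson, and cover only counting error, because reads are not independent molecules. The trend with implied length used a LOWESS fraction of 0.3. The calculations were tested on simulated data (Python 3.11.15, numpy 2.4.6, pandas 2.3.3, scipy 1.17.1, statsmodels 0.14.6, matplotlib 3.10.9). Members, related lists and marker lists were chosen with earlier results of these data known. Every member was named or counted, and from each related list up to 4 genes with the largest ratios were eligible, plus genes whose role the text needed. UBB, NRDE2, FBXW7, VCP and NGLY1, outside that rule, were chosen after their values were seen. Each group had 1 library, so no test was run. Alternatives covered scaling, prior count, count minimum, FPKM, length trend, means, membership, fold size and, added after seeing the data, other backgrounds, exon overlap and coding rows.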

Additional observations from a re-analysis of the deposited data

How the results depend on the processing

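The excess of proteasome over protein-coding genes, 0.37 on the log2 scale, kept its sign under every alternative run, from 0.25 to 0.50. Scaling cancels in a difference of medians, so the scaling alternatives could not move it. The excess was 0.48 with a minimum of 10 counts and 0.50 with none, where more genes of low count enter the protein-coding median. It was 0.25 against protein-coding genes with implied lengths under 1200 bases, an alternative chosen after seeing the data. The count of genes at least 2-fold higher went to 1 when the length trend was removed (PSMD9, log2 ratio 1.06) and to 12 at 1.5-fold. Cap minus core turned to -0.37 among rows at coding transcripts, also added after seeing the data, and to -0.02 with means; the cause was not tested. The immunoproteasome ratios of ratios kept their sign under all alternatives run for them. Scaling and the count minimum could not change them, and the restriction to coding rows was not run for them. Of 470 single-gene values under alternatives, 56 moved beyond their counting interval and 1 changed sign, PSMC4 at -0.03 with median-of-ratios scaling. The 470 include the count minimum settings, which cannot change the ratio of a single gene. No paired analysis was possible because each group has 1 library and the labels give no replicate numbers. Depth limits PSMB6, PSMC5, PSMD5 and PSMD10, with 337, 398, 465 and 407 counts in resistant cells and fewer in parental cells.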

Other observations

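Rows of 20 proteasome pseudogenes summed to 2052 counts in resistant cells and 1992 in parental cells. PSMC1P1 alone held 1523 counts in resistant cells and 1133 in parental cells (1.35-fold, 1.25 to 1.46), and PSMC1P2 held 63 in resistant cells and 301 in parental cells (0.211-fold, 0.158 to 0.277). How reads were shared with PSMC1 is not given in the sources used here. Antisense and divergent RNAs named for proteasome genes summed to 526 counts over 7 genes in resistant cells and 717 in parental cells. PSMD6-AS2 held 106 counts in resistant cells, against 282 in parental cells (0.378-fold, 0.3 to 0.475), while PSMB8-AS1 held 156 in resistant cells and 87 in parental cells (1.8-fold, 1.38 to 2.37). Both went in the direction of the gene they are named for, whereas PSMA3-AS1, with 162 counts in resistant cells and 229 in parental cells (0.712-fold, 0.579 to 0.875), went against PSMA3. On the opposite strand, PSMD6-AS2 shares 352 exonic bases with PSMD6, PSMB8-AS1 618 with PSMB8 and PSMG3-AS1 60 with PSMG3. Whether counting used strand is not given in the sources used here, and the part of shared reads was not tested. PSMG3-AS1 held 78 counts in resistant cells and 96 in parental cells (0.818-fold, 0.599 to 1.11), an interval that spans 1. These genes were chosen after their values were seen.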
